A study of Mus musculus with 4 samples.

Results

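The 9 genes described here encode Reg lectins and other secreted antimicrobial proteins of the gut lining: Reg4, Reg3b, Reg3g, Reg3a, Reg1, Mmp7, Lyz1, Ang4 and Pla2g2a. They were taken by gene symbol from the 23235 symbols of the deposited expression files, and all 9 were found. They had been named with the difference between mutant and control libraries already in view. Their differences are therefore given as a description, and counts of members past a threshold stand only beside the share of all genes and support nothing.

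The study made 4 RNA libraries from the 2 cm of colon next to the caecum, dissected from mice aged 6 weeks. The 2 mutant libraries had the genotype Nkx2.2flox/flox; Villin-Cre/+, and the 2 control libraries were Nkx2.2flox/+ with no Cre listed. All 4 libraries thus came from mice of a mixed strain with at least 1 floxed Nkx2-2 allele, and the Cre transgene and the second floxed allele cannot be told apart as sources of a difference. Villin-Cre acts in the epithelium of the gut, whereas the labels mention no separation of the layers of the colon wall. No label states that libraries of the same genotype were separate animals, so any p-value measures only the spread between these libraries.

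Reg3 proteins are small C-type lectins that epithelial cells secrete onto the mucosa. In the mouse Reg3g binds the peptidoglycan of Gram-positive bacteria, and Reg3b acts mainly on Gram-negative ones. Interleukin-22 from innate lymphoid cells and T cells induces both genes through the transcription factor STAT3. Lyz1, Ang4, Pla2g2a and Mmp7 are best known from Paneth cells, which sit at the crypt base of the small intestine. The colon normally lacks Paneth cells, and Reg4-positive deep crypt secretory cells take that place. Nkx2-2 is a homeodomain transcription factor that acts in the differentiation of enteroendocrine cells.

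Promoter sequences are shown for 5 genes. Reg3b and Reg3g are the most abundant of the set and lie at the ends of 1 gene cluster, and Reg4, Mmp7 and Ang4 are those whose mutant and control values do not overlap. Each is the 250 bases before the transcription start, 5′ to 3′ on the gene's strand, from RefSeq (GRCm38.p6) and matched base for base to mm9. Capitals mark matches to the STAT motif TTCNNNGAA or the TATA motif TATAAA on either strand.
Reg3b: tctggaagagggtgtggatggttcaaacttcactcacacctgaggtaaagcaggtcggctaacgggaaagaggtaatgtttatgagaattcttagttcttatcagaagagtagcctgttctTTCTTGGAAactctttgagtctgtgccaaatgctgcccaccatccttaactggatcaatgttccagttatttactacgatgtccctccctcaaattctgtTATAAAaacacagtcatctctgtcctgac
Reg3g: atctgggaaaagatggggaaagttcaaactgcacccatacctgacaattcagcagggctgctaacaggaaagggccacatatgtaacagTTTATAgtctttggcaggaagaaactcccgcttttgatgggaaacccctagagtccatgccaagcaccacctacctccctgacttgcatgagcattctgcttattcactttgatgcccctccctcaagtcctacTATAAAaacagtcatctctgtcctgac
Reg4: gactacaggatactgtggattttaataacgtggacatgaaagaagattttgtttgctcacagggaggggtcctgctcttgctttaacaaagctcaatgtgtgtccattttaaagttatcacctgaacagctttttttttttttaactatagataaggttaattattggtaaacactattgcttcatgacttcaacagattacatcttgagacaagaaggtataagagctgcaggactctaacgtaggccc
Mmp7: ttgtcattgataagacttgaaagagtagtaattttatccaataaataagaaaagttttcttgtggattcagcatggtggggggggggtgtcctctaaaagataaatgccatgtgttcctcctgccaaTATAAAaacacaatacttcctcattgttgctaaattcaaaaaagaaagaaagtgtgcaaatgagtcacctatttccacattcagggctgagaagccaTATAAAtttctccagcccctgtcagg
Ang4: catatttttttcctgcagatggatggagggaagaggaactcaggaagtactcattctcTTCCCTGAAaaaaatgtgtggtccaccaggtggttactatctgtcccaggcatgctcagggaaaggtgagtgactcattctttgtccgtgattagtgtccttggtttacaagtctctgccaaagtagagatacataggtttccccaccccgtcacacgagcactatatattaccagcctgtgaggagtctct
The Reg3b promoter lies at chr6:78320629-78320878 on the plus strand and that of Reg3g at chr6:78418869-78419118 on the minus strand. Those of Reg4 (chr3:98025829-98026078) and Mmp7 (chr9:7691840-7692089) are on the plus strand, and that of Ang4 (chr14:52393266-52393515) is on the minus strand.

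The Reg3b and Reg3g promoters shared 70.0% of 247 aligned bases, those of Reg3g and Reg3a 71.5% of 193, those of Reg3b and Reg3a 64.7% of 190 and those of Reg3b and Reg4 65.4% of 191. The longest common run of Reg3b and Reg3g was the last 20 bases before the start. A TATAAA stood 29 to 24 bases before the start of Reg3b, 27 to 22 before that of Reg3g and 26 to 21 before that of Mmp7. Reg1 had one at 30 to 25, so 4 of the 8 members with a promoter sequence held the motif, which 13% of all 27025 promoters also hold. TTCNNNGAA occurred in the promoters of Reg3b and Ang4, and in 7.18% of all promoters. The NK2 core motif CAAGTG, of the homeodomain class that includes Nkx2-2, was found in the promoter of Lyz1 alone among the members, and in 11.6% of all promoters. These are matches of letters within this window and do not show binding.

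Values are FPKM, in which the authors divided fragment numbers by the length of the transcript and the size of the library. Of the 23074 symbols left after rows with a failed estimate were removed, 13997 whose mean was 0.5 FPKM or more were fitted. Nkx2-2 itself stood at 0.125 and 0.351 FPKM in mutant libraries 1 and 2, against 0.724 and 0.609 FPKM in control libraries 1 and 2. All but Hoxb13 of 18 colon epithelium markers were above 0 in every library, with summed levels of 27980 to 28391 FPKM in mutants and 25900 to 33981 FPKM in controls. By the median ratio of coverage to FPKM over isoforms, mutant 1 had 0.464 times the depth of control 1, mutant 2 had 1.03 times and control 2 had 1.13 times. Control 1 stood apart in B cell markers, whose sum was 13.3 to 17.2 FPKM in mutants, 153.2 FPKM in control 1 and 10.98 FPKM in control 2.

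**Figure D1:**
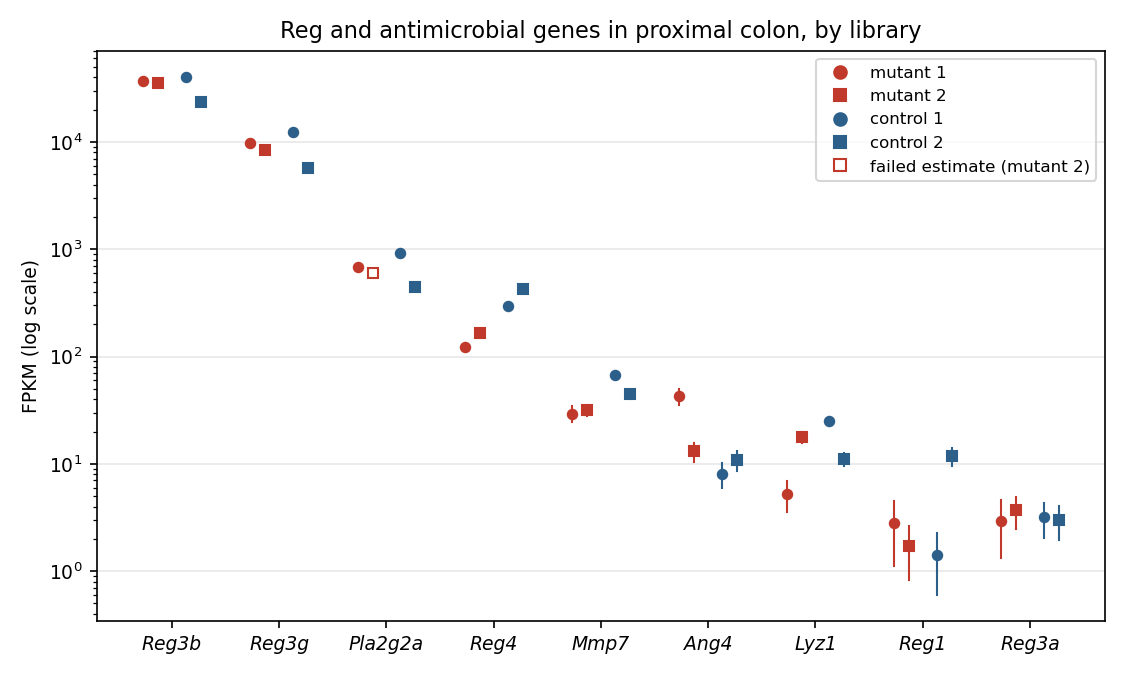
FPKM of the 9 genes on a log axis, 1 point per library, with mutant libraries left of control libraries for each gene; bars are the authors' 95% intervals and the open square is the failed estimate of Pla2g2a in mutant 2. The genes range from Reg3b, at 23423 FPKM or more in every library, to Reg1 and Reg3a at a few FPKM, and Reg4 and Mmp7 are lower and Ang4 higher in both mutant libraries than in either control.

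The 9 genes spanned about 4 orders of magnitude. Reg3b, Reg3g, Pla2g2a and Reg4 held the first 4 places in that order in all 4 libraries. Pla2g2a and Reg4 were close in control 2, and their 95% intervals overlapped. There Pla2g2a had 440.4 FPKM (95% interval 427 to 454) and Reg4 had 421.9 FPKM (411 to 433). Mmp7 came next except in mutant 1, where Ang4 did. In such bulk tissue, fewer cells of a type and less RNA per cell cannot be told apart. All 9 genes together took an estimated 3.62% and 3.39% of the fragments in mutants 1 and 2, against 4.13% and 2.31% in controls 1 and 2.

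Among the Reg3 lectins, Reg3b had 36613 and 35195 FPKM in mutant libraries 1 and 2, against 40462 and 23423 FPKM in control libraries 1 and 2. It was the most abundant of all gene rows in every library, and both mutant values lay between the 2 control values. Its means were 35904 ± 1003 FPKM in mutants and 31943 ± 12048 FPKM in controls (SD, n = 2 each), a log2 difference of 0.22 (SE 0.25) on the log2(FPKM + 0.5) scale. Leaving out control 1 made the difference 0.62, and leaving out control 2 made it -0.17. Its fragment share was 2.78% and 2.67% in mutants 1 and 2, against 3.07% and 1.78% in controls 1 and 2.

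Reg3g had 9864 and 8372 FPKM in mutant libraries 1 and 2, against 12271 and 5778 FPKM in control libraries 1 and 2. Control 1 was again the highest library and control 2 the lowest, with the mutants between. The log2 difference was 0.11 (SE 0.31), and it was 0.65 without control 1, -0.43 without control 2 and -0.01 without mutant 1. The ratio of Reg3b to Reg3g was steadier than either gene, at 3.71 and 4.20 in mutants 1 and 2 and 3.30 and 4.05 in controls 1 and 2.

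Reg3a, a lectin of the same family, stood at 2.96 and 3.69 FPKM in mutants 1 and 2, against 3.18 and 3.002 FPKM in controls 1 and 2. These groups overlapped, and the values rested on an estimated 13 to 36 fragments per library. The log2 difference was 0.09 (SE 0.23), and -0.05 without mutant 2. Reg3g exceeded Reg3a per length by 3328 and 2266 times in mutants 1 and 2 and by 3864 and 1925 times in controls 1 and 2.

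Reg3b, Reg3g, Reg3a and Reg1 lie in 1 cluster of 6 Reg genes in 97990 bases of mouse chromosome 6 (mm9), with Reg3b at chr6:78320879-78323460 on the plus strand and Reg3g at chr6:78416262-78418868 on the minus strand. Reg3a (chr6:78330703-78333833) and Reg1 (chr6:78375977-78378660) lie between them on the plus strand. Reg3a, which lies between them, was thus far lower than either gene at the ends of the cluster in all 4 libraries. The transcripts of Reg3b and Reg3g were 74.5% identical over 741 bases, and those of Reg3b and Reg3a 75.5% over 738. None of the 6 transcripts of the cluster, nor that of Reg4, shared a stretch of 50 bases with another gene.

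The remaining cluster genes were barely detected. Reg3d had 1.32 and 1.07 FPKM in mutants 1 and 2, against 0.153 FPKM in control 1 and a listed 0 in control 2. Both mutants were above both controls, but the authors' 95% intervals reached 0 in mutant 1 (0 to 3.25) and control 1 (0 to 0.537). Its limma adjusted p was 0.404. Reg2 did not exceed 0.413 FPKM in any library.

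**Figure D2:**
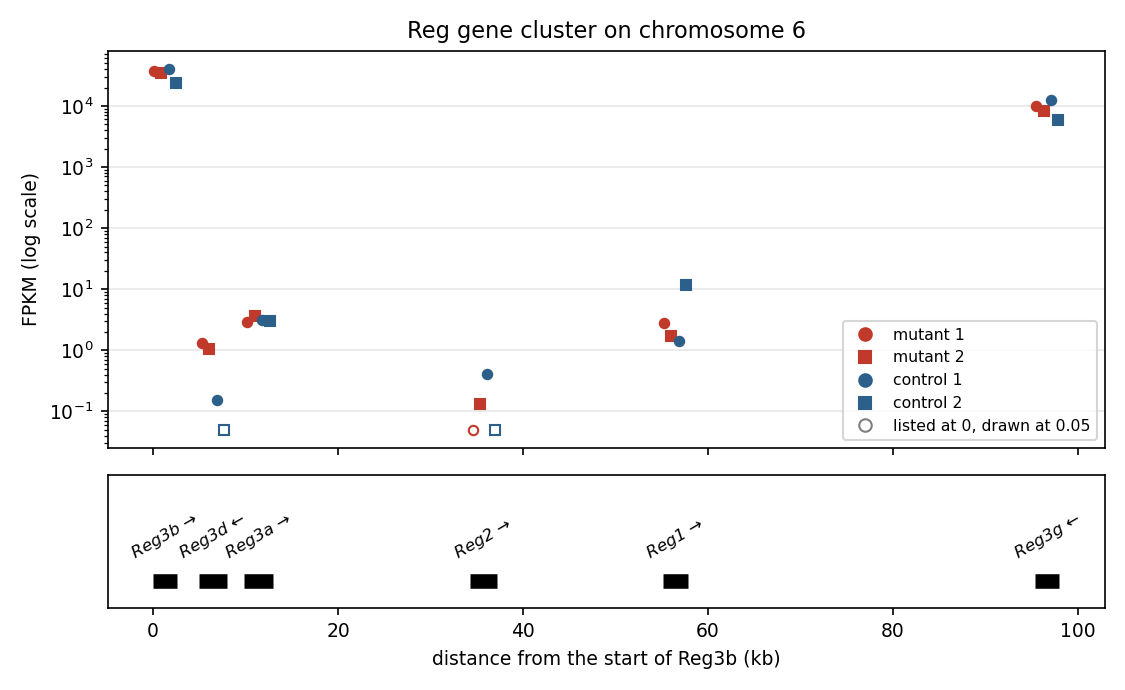
FPKM on a log axis of the 6 genes of the Reg cluster against their distance in kb from the start of Reg3b, 1 point per library, mutants in red left of controls in blue; open points are listed at 0 and drawn at 0.05, and the lower panel gives each gene's place and strand. The genes at the ends, Reg3b and Reg3g, lie far above the 4 genes between them in all 4 libraries, with Reg1 in control 2, at 11.8 FPKM, the highest of those 4.

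Reg1, named for its link to regenerating pancreatic islets, had 2.81 and 1.73 FPKM in mutants 1 and 2, against 1.42 and 11.8 FPKM in controls 1 and 2. Control 2 alone was high, 8.27-fold above control 1, and the mutants fell between the controls. The log2 difference was -0.84 (SE 0.71) and was 0.50 without control 2 and -2.18 without control 1. Several of 20 markers of small intestinal enterocytes were also highest in control 2. Among these, Apoa1 and Apoa4 had 8.96 and 5.33 FPKM there, against at most 1.58 and 0.137 FPKM in the other 3 libraries. Other markers of the list, such as Alpi and Fabp6, were highest in mutant 1. The summed level of that list was 997 and 1043 FPKM in mutants 1 and 2 and 631 and 1057 FPKM in controls 1 and 2, and no marker of it was at 0 in all libraries. Its part in the Reg1 values was not tested. Of 26 pancreatic acinar markers other than Zg16, 8 were at 0 in every library, among them Amy2a5, Cpa1 and Prss1, and their sum was 44.0 to 80.5 FPKM in mutants and 64.8 to 107.3 FPKM in controls. Cela1 and Sycn made up most of it: the other 24 summed to 5.45 to 5.88 FPKM in mutants and 3.76 to 6.03 FPKM in controls.

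Reg4, the lectin of deep crypt secretory and some enteroendocrine cells of the colon, had 123.7 and 166.6 FPKM in mutants 1 and 2, against 295.7 and 421.9 FPKM in controls 1 and 2. Both mutants were below both controls, with no overlap. The means were 145.2 ± 30.3 FPKM in mutants and 358.8 ± 89.2 FPKM in controls (SD, n = 2 each), so that the mutant mean was 0.405 times the control mean. The log2 difference of -1.30 (SE 0.23) was the 37th lowest of 13997 genes, and it ranged from -1.55 to -1.04 as each library was left out in turn. Reg4 (chr3:98026079-98040671, plus strand) was measured on an estimated 702 and 2099 fragments in mutants 1 and 2, against 3613 and 5818 in controls 1 and 2. The authors' deposited table gave mean normalized counts of 1640 in mutants and 3701 in controls, a fold of 0.443.

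Of 16 enteroendocrine markers, 15 were tested and 5 passed: Chga, Chgb, Tph1 and Insl5 lower and Ghrl higher in mutants (limma adjusted p = 0.014 to 0.0302). Chga, the granule protein chromogranin A, had 4.87 and 8.69 FPKM in mutants 1 and 2, against 43.4 and 69.8 FPKM in controls 1 and 2. Tph1, the enzyme of serotonin synthesis, had 0.354 and 1.40 FPKM in mutants 1 and 2, against 15.4 and 18.8 FPKM in controls 1 and 2. Chga, Chgb and Tph1 ordered the 4 libraries as Reg4 did, while Insl5 was lowest in mutant 2 and Ghrl highest in mutant 1. Of the 15 tested markers, 9 had differences below 0 and 6 above, beside 82.6% of all genes below 0. How many other genes share the order of Reg4 was not counted. Summed over the 16 markers, none of which was at 0 in all libraries, the level was 498.1 and 476.3 FPKM in mutants 1 and 2, against 430.3 and 656.4 FPKM in controls 1 and 2. Their part in the Reg4 values was not tested.

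The ratio of Reg3b to Reg4 has Reg4 as its divisor, so it partly restates the Reg4 values and is no separate result. Reg3b exceeded Reg4 by 295.9 and 211.2 times in mutants 1 and 2, against 136.8 and 55.5 times in controls 1 and 2. The 2 mutant ratios were above both control ratios. Control 2 had the lowest ratio, and in that library Reg3b was lowest and Reg4 highest.

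Mmp7, matrilysin, is the protease that activates alpha-defensin precursors in mouse Paneth cells. Its level was 29.3 and 31.7 FPKM in mutants 1 and 2, against 68.0 and 44.5 FPKM in controls 1 and 2. The mutants lay close together and below both controls. Means were 30.5 ± 1.68 FPKM in mutants and 56.2 ± 16.6 FPKM in controls (SD, n = 2 each), a log2 difference of -0.84 (SE 0.23). The difference was -0.54 without control 1 and -1.14 without control 2. Mmp7 (chr9:7692111-7699416, plus strand) had 137 and 329 fragments in mutants 1 and 2, against 684 and 504 in controls 1 and 2.

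The alpha-defensins, substrates of Mmp7, were near 0 in these libraries. Of 23 alpha-defensin genes in the files, 16 were listed at 0 in all 4 libraries, and none reached the mean of 0.5 FPKM needed for the fit. The highest single value was 0.845 FPKM, for Defa24 in control 2. Summed over the 23 genes, the level was 1.14 FPKM in mutant 1 and below 0.001 FPKM in mutant 2, against 0.738 and 1.34 FPKM in controls 1 and 2.

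Ang4, a ribonuclease with microbicidal activity made by Paneth and goblet cells, had 42.7 and 13.1 FPKM in mutants 1 and 2, against 8.08 and 10.9 FPKM in controls 1 and 2. Both mutants were above both controls, but mutant 1 was 3.25-fold above mutant 2, which was near control 2. Means were 27.9 ± 20.9 FPKM in mutants and 9.50 ± 2.01 FPKM in controls (SD, n = 2 each). The log2 difference was 1.30 (SE 0.46), and it was 0.46 without mutant 1 and 2.13 without mutant 2. Ang4 (chr14:52383567-52393265, minus strand) had 145 and 99 fragments in mutants 1 and 2, against 59 and 90 in controls 1 and 2. It shares 4.55% of its 50-base stretches with its paralogue Ang5, so a few of its reads could have been split between them. Goblet cell markers, which include no member of the set, summed to 11487 and 11353 FPKM in mutants 1 and 2, against 14032 and 12376 FPKM in controls 1 and 2; none of 13 passed the test, and their part in the Ang4 values was not tested.

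Lyz1 encodes the lysozyme of Paneth cells, which cuts peptidoglycan. It had 5.28 and 17.9 FPKM in mutants 1 and 2, against 24.9 and 11.1 FPKM in controls 1 and 2. Mutant 1 was the lowest and control 1 the highest library, and the groups overlapped. The log2 difference was -0.74 (SE 0.53), and it was 0.10 without mutant 1 and -1.57 without mutant 2. The Lyz1 transcript (chr10:116724851-116729924, minus strand) is 96.0% identical to that of Lyz2, the macrophage lysozyme, over 1263 bases, and 16% of its 50-base stretches occur in Lyz2. Lyz1 values are therefore uncertain.

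Lyz2 ordered the libraries as Lyz1 did, at 271.3 and 498.5 FPKM in mutants 1 and 2, against 643.0 and 421.8 FPKM in controls 1 and 2. Lyz2 exceeded Lyz1 by 25.8 to 51.4 times in the 4 libraries. Without Lyz2, macrophage markers summed to 275.2 and 418.1 FPKM in mutants 1 and 2, against 550.4 and 369.6 FPKM in controls 1 and 2, the same order again. All 12 of these had log2 differences below 0, beside 82.6% of all genes. None of the 12 passed the test, and none was at 0 in all libraries. Their part in the Lyz1 values was not tested.

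Pla2g2a, a secreted phospholipase A2 that attacks bacterial membranes, had 681.4 and 602.1 FPKM in mutants 1 and 2, against 923.9 and 440.4 FPKM in controls 1 and 2. The mutant 2 estimate carried the authors' status FAIL, with an interval of 0 to 672.0 FPKM, so Pla2g2a was not in the fit. The mutant values lay between the controls, and control 1 was highest and control 2 lowest, as for Reg3b and Reg3g. The log2 difference was 0.10 with mutant 2 dropped and 0.01 with it kept. Most of the signal was on the non-coding isoform NR_002926, at 533.0 and 594.1 FPKM in mutants 1 and 2, against 923.9 and 440.3 FPKM in controls 1 and 2. The protein-coding isoform NM_001082531 was marked LOWDATA and listed at 148.4 and 8.00 FPKM in mutants 1 and 2, against 0.0174 and 0.0298 FPKM in controls 1 and 2. C57BL/6 mice carry a frameshift that inactivates this gene, other strains do not, and the strain here was mixed. Whether the isoform values follow strain was not tested.

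**Figure D3:**
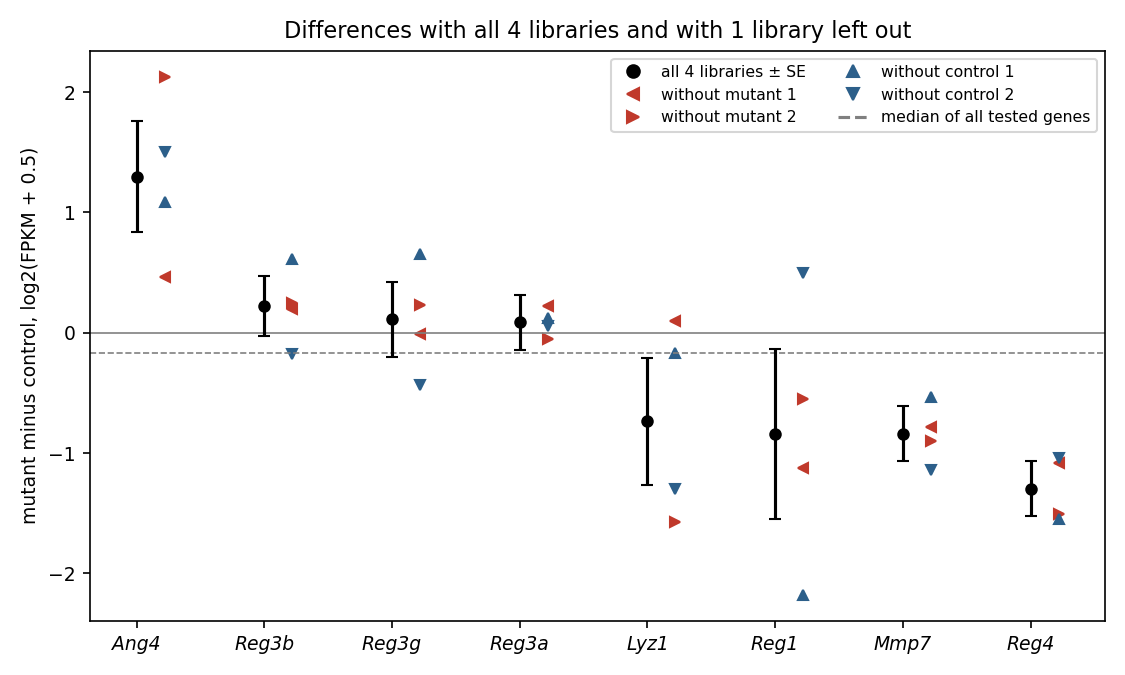
Log2 difference, mutant minus control, on the log2(FPKM + 0.5) scale for the 8 genes in the fit: black points are all 4 libraries with bars of 1 SE, triangles are values with 1 library left out, and the dashed line is the median of all genes, -0.17. Reg4 and Mmp7 stay below 0 and Ang4 above 0 in every triangle, while Reg3b, Reg3g, Reg3a, Lyz1 and Reg1 have triangles on both sides of 0. For Reg4, Mmp7 and Ang4 this follows from groups that do not overlap.

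Counted together, 0 of the 8 genes in the fit had a limma adjusted p under 0.05, against 0.0643% (9) of all 13997 genes (0.0357% higher and 0.0286% lower in mutants). At an unadjusted limma p under 0.05 there were 3 of 8, against 4.82% of all genes. The authors' deposited DESeq table had 0 of 9 under an adjusted 0.05, against 0.0384% of its genes. Both mutants were below both controls for 2 members, Reg4 and Mmp7 (35.1% of all genes), and above both for 1, Ang4 (3.39% of all genes). The other 5 overlapped. Nothing is read from these counts, since the members were chosen on this contrast. The median log2 difference of the 8 was -0.32, beside -0.17 for all genes, of which 82.6% were below 0. Relative to that median Reg4 was at -1.13, Mmp7 at -0.67, Reg1 at -0.67 and Lyz1 at -0.57. On the same scale Reg3a was at 0.25, Reg3g at 0.28, Reg3b at 0.39 and Ang4 at 1.46.

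With the library number as a block, Ang4, Mmp7 and Reg4 had limma adjusted p under 0.05, as did 1.39% (195) of all genes. No label says that the numbers pair the libraries, so nothing is read from this setting. Leaving out control 1 gave 4 such members (Reg1 and Reg4 lower, Reg3b and Reg3g higher in mutants), against 0.886% (124) of all genes. Leaving out control 2 gave 4 (Lyz1, Reg3g and Reg4 lower, Ang4 higher), against 2.59% (362) of all genes. Reg3g was thus called in opposite directions depending on which control was left out.

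The members fell into different patterns over the 4 libraries. Once each gene was centred on its own mean, Reg3b and Reg3g were the closest of the 28 pairs among the 8 members in the fit, at a Euclidean distance of 0.27 on the log2 scale. The next pair, Reg3b and Reg3a, was at 0.576, and Reg4 and Mmp7, both lower in the mutants, were at 0.940, since Reg4 was highest in control 2 and Mmp7 in control 1. These distances describe 4 libraries from the same 2 groups.

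**Figure D4:**
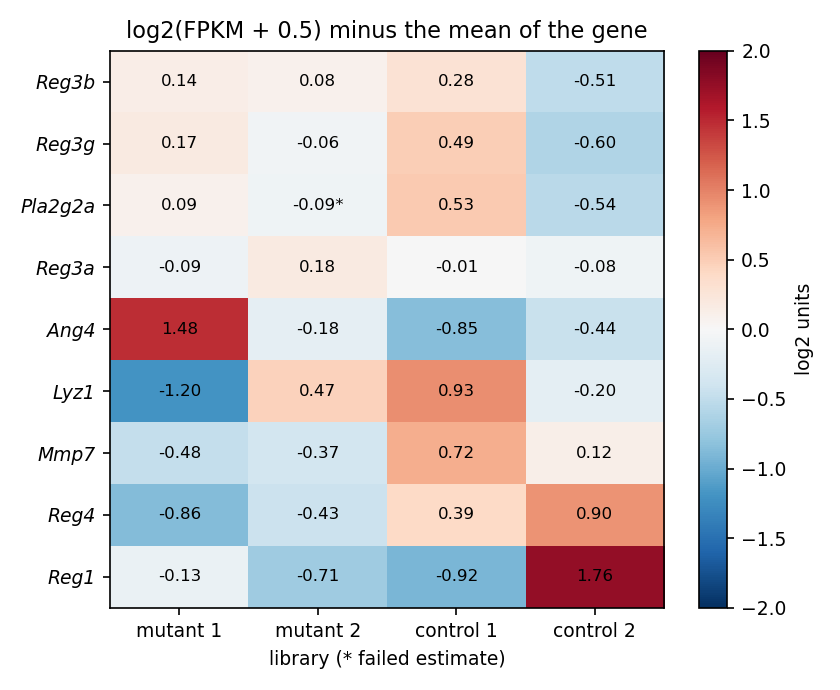
Log2(FPKM + 0.5) of each member minus its mean over the 4 libraries, as a colour scale in log2 units with the value in each cell, mutants 1 and 2 left of controls 1 and 2; the star marks the failed estimate. Reg3b, Reg3g and Pla2g2a share a high control 1 and a low control 2, Reg4 is lowest in mutant 1 and highest in control 2, and Reg1 stands out in control 2 alone.

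Among 9307 other genes averaging 5 FPKM or more, Slc1a1, Abhd1 and Duox2 were nearest to Reg3b by that measure, at 0.0958 to 0.116. Duox2, the epithelial oxidase that produces hydrogen peroxide, had 73.2 and 62.9 FPKM in mutants 1 and 2, against 75.0 and 43.4 FPKM in controls 1 and 2. Nearest to Reg3g were Sip1, 1500011B03Rik and Hsd17b13 (0.0615 to 0.139), and nearest to Reg3a were Tprn, Lsm3 and Timm22. Beta-s and Hba-a1, both haemoglobin genes, were among the 3 nearest to Reg4, at 0.152 and 0.243. Beta-s had 13.7 and 18.6 FPKM in mutants 1 and 2, against 31.0 and 51.6 FPKM in controls 1 and 2. Both were picked for their nearness to Reg4, so their likeness to it is no separate result. Red blood cell transcripts as a class are not described here, and their part in the Reg4 values was not tested. Mmp7 had Fyn, Sept6 and Dnase2a nearest, and Lyz1 had Ctla2a, Tnfaip2 and Bcl2a1b. For Ang4 the nearest, the pancreatic polypeptide gene Ppy, was 0.600 away, and for Reg1, S100g was 1.03 away.

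Beyond the members, 92 genes of 4 related lists were tested, and 0 passed at a limma adjusted p of 0.05, with 12 at an unadjusted p under 0.05 (4.82% of all genes) and 0 past the threshold in the authors' deposited DESeq table. The count rested on both controls: 4 genes passed without control 1 (Reg3d, Saa1 and Sprr2a2 higher, Defb37 lower) and 9 without control 2, among them Il22 and Slpi lower and Reg3d higher. Of 35 other Reg and antimicrobial effector genes, 18 had differences above 0 and 17 below (82.6% of all genes were below 0), with a median of 0.04. The most abundant, 2210415F13Rik, which encodes the flagella-binding Lypd8, had 11154 and 6648 FPKM in mutants 1 and 2, against 8612 and 10254 FPKM in controls 1 and 2. Zg16, a lectin that binds Gram-positive bacteria, had 2833 and 2147 FPKM in mutants 1 and 2, against 3527 and 2127 FPKM in controls 1 and 2. Both overlapped between groups.

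Saa1, an acute-phase protein, was lowest in control 2, as Reg3b was, with 1532 and 1261 FPKM in mutants 1 and 2, against 1488 and 744.8 FPKM in controls 1 and 2. Sprr2a2, a small proline-rich protein, varied widely within both groups, with 3903 and 237.5 FPKM in mutants 1 and 2, against 1108 and 288.9 FPKM in controls 1 and 2. Slpi, an inhibitor of neutrophil proteases, had 1.72 and 8.79 FPKM in mutants 1 and 2, against 32.6 and 5.12 FPKM in controls 1 and 2. Neither Saa1 nor Sprr2a2 nor Slpi separated the groups.

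The lists overlap in a few genes. Of the 13 deep crypt secretory cell genes tested, 12 had differences below 0 (82.6% of all genes). Both mutants were below both controls for 8 of them (35.1% of all genes). Their median was -0.34 beside -0.17 for all genes, and Reg4 was not counted in this list. Cd24a, a surface marker of these cells, had 238.7 and 322.2 FPKM in mutants 1 and 2, against 362.7 and 445.6 FPKM in controls 1 and 2. Atoh1, the transcription factor of the secretory lineage, had 32.2 and 38.7 FPKM in mutants 1 and 2, against 46.3 and 50.8 FPKM in controls 1 and 2. The Notch ligand Dll4 had 4.45 and 4.34 FPKM in mutants 1 and 2, against 6.31 and 6.79 FPKM in controls 1 and 2. All 3 genes had both mutants below both controls, each with a limma adjusted p of 0.825. Spink4, the most abundant gene of the list, also had both mutants below both controls (limma adjusted p = 0.825). Its level was 2387 and 2050 FPKM in mutants 1 and 2, against 2994 and 2887 FPKM in controls 1 and 2. Agr2 and Retnlb, the next most abundant, overlapped between groups. Agr2 had 2009 and 2895 FPKM in mutants 1 and 2, against 2349 and 2674 FPKM in controls 1 and 2. Retnlb had 1231 and 1280 FPKM in mutants 1 and 2, against 1608 and 853.3 FPKM in controls 1 and 2.

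Of 11 tested alpha-defensin and Paneth cell genes, 10 had differences below 0 (median -0.22), beside 82.6% of all genes (median -0.17). Clps, pancreatic colipase, had the largest difference of these, at 11.1 and 12.7 FPKM in mutants 1 and 2, against 16.6 and 24.9 FPKM in controls 1 and 2 (limma adjusted p = 0.825). Of 38 genes of interleukin-22, interleukin-17 and innate sensing, 25 were below 0 and 13 above (median -0.14), beside 82.6% of all genes below 0. Il22, whose product induces Reg3b and Reg3g, had 0.326 and 0.229 FPKM in mutants 1 and 2, against 1.67 and 0.402 FPKM in controls 1 and 2. Both mutants were below both controls at these low levels, and control 1, where Reg3b and Reg3g were also highest, had the highest value. Il22ra2, the soluble antagonist of that cytokine, was also highest in control 1, with 1.65 and 0.855 FPKM in mutants 1 and 2, against 4.61 and 0.781 FPKM in controls 1 and 2. Markers of innate lymphoid and T cells summed to 130.8 and 144.1 FPKM in mutants 1 and 2, against 299.5 and 206.4 FPKM in controls 1 and 2. All 12 tested markers were below 0 (82.6% of all genes), none past the threshold and none at 0 in all libraries. Their part in the Il22 values was not tested.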

How the data were processed

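RNA was sequenced from 2 mutant and 2 control libraries. Per the labels' protocols, total RNA from RNeasy kits went into TruSeq libraries. Tools named in the submitters' processing notes are TopHat, Cufflinks, DESeq and bcl2fastq 1.8.4, with the build mm9. Per the file headers, the authors deposited FPKM per gene row and per isoform with a 95% interval and a status. The authors' deposited table of the comparison holds mean normalized counts (signal values), fold changes as a ratio, log2 fold changes and p-values. Raw counts per library were not used here; the fragments behind an FPKM value were estimated from its interval and cover counting error only, and fragment shares from FPKM times transcript length.

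Of 23699 gene rows, 306 were left out because at least 1 library had no OK status, and rows of one symbol were summed. Differences, mutant minus control, came from limma 3.58.1 (R 4.3.3) on log2(FPKM + 0.5) with a variance trend and Benjamini-Hochberg adjustment over the 13997 genes whose mean was 0.5 FPKM or more. With 2 libraries a group, an exact permutation test cannot go below p = 0.333. A difference understates the change of low genes because of the added 0.5.

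The members, lists and marker genes were chosen with earlier results of these data known. Named genes are all members; from each list genes past the threshold, otherwise genes from the 4 most abundant and the 4 with the largest difference; the 3 genes nearest each member; and Nkx2-2. Defa24 and all singly named markers outside these rules, such as Chga, Chgb, Tph1, Insl5, Ghrl, Apoa1 and Apoa4, were named after their values were seen. Muc2 is not analysed here. One of the genes nearest Reg4 is not reported here. Promoters came from the RefSeq table for 8 of 9 members, with none printed for Pla2g2a, and loci from the files with 1 added to the start. Alternatives changed the pseudocount, filter, scaling, variance model, row summing, status filter, source table, block and libraries.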

Additional observations from a re-analysis of the deposited data

How the results depend on the processing

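Across all genes 9 passed the threshold; the number was 2 with no filter on low values, 3 after median ratio rescaling, 2 after quantile normalization and 195 with the replicate block, and 8 to 362 as each library was left out (124 without control 1, 362 without control 2). Of the list genes, 0 passed, against 5 with the replicate block (Reg3d and Sprr2a2 higher, S100a8, S100a9 and Slpi lower) and 0 to 9 as each library was left out. No label says that the numbers pair the libraries. Over genes, same-numbered deviations correlated at -0.00217, which with only 2 possible pairs cannot decide whether they do. Members above both controls were 1, and 2 after median ratio rescaling or quantile normalization, which added Reg3a, and 1 to 3 as each library was left out. Members below both controls were 2, and 2 to 5 likewise. Shares of all genes under these other settings are not given, and a group of 1 library separates more easily. Nothing is therefore read from these counts. The signs of Reg4, Mmp7 and Ang4 held under all 15 alternatives. Because their groups did not overlap, leaving out a library could not change a sign, and several other alternatives left the difference unchanged. Median ratio rescaling moved the median of all genes from -0.17 to 0.01 on the log2 scale, and gave -1.11 for Reg4, -0.66 for Mmp7 and 1.48 for Ang4. The causes were not tested. With 1 library left out, its group's lone library is assumed to vary like the other group. Depth limits Reg3a, Reg1 and Reg3d most, whose values rest on few fragments, and mutant 1 is the shallowest library.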
